A study of Mus musculus with 16 samples.

Results

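The regions described here are the 516 stretches of mouse genome where Med26 was listed both after knockdown of Cbx3 and in control cells, out of 5990 Med26 regions listed in the control (8.61%). They are called kept regions, and the other 5474 control regions, which overlapped nothing in the list after the knockdown, are called lost. The members were chosen by the Med26 signal lists of both siRNA arms: windows of 50 bp up to 200 bp apart were joined into regions, and a control region was kept when it shared at least 1 bp with a region of the Cbx3 siRNA list. Occupancy was measured by ChIP-seq in neural progenitor cells derived from V6.5 mouse embryonic stem cells by way of embryoid bodies. The groups used are cells transfected for 72 hours with an siRNA against Cbx3, cells transfected for the same time with an siRNA against luciferase (control siRNA), and cells with no treatment. Med26, Cdk8 and RNA polymerase II (Pol II) were each mapped in 1 library per siRNA arm. Pol II was also mapped in 1 untreated library, and Cbx3 in 2 untreated libraries, called sets 1 and 2. All groups share 1 embryonic stem cell line, and how far Cbx3 itself fell after the siRNA was not analysed here. The neural identity of the cells was not checked here, since no gene annotation of the files' genome build (mm9) was used; for the same reason regions carry coordinates and no gene names.

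Mediator is a large complex that links transcription factors at enhancers and promoters to Pol II. Med26 is a Mediator subunit found mainly in the form of the complex that carries Pol II, and it is known to bring elongation factors to Pol II near gene starts. Cdk8 is the kinase of a module that attaches to Mediator reversibly and is found mainly in Mediator that lacks Med26. Cbx3, also called HP1 gamma, is a chromatin protein that binds methylated histone H3 and has been found both in heterochromatin and in the bodies of transcribed genes.

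The libraries differed in how much they listed. Med26 had 2721 windows after Cbx3 siRNA, against 15546 in the control, and the lowest listed signal was 6.01 in both. Pol II had 101091 and 116001 windows in those arms and Cdk8 had 10955 and 9960. The signal values of both files of a pair were whole multiples of the same step (0.0192 for Med26, 0.022 for Pol II and 0.0282 for Cdk8), so values were compared as deposited within a pair; whether the libraries were equally deep cannot be read from the step, and lists of windows above a minimum do not give total reads. Untreated Pol II had another step (0.0211) and a higher lowest listed signal (9.02), so its values, where given, are not compared in level with the siRNA arms. The pairs have no replicates, so no difference between arms is tested and no p-value is given. Intervals are 95% intervals and cover counting error only; regions of 1 library are no replicates, and windows side by side can hold the same reads.

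At the kept regions Med26 was lower and narrower after Cbx3 siRNA than in the control. Because both Med26 lists chose the members, these values describe them and test nothing. The highest Med26 window of a kept region had a median signal of 9.47 after Cbx3 siRNA (lowest 6.04, highest 59.0), against 15.1 in the control (lowest 6.83, highest 122.7). The ranges overlapped across regions, but within regions the highest window was lower after the knockdown in 483 of 516 and higher in 33. The log2 difference from the control had a median of -0.68 (interval -0.72 to -0.64). The middle 50% of the regions lay between -0.99 and -0.35, and the whole range ran from -2.17 to 0.55. A fall of at least 1.5-fold was seen at 303 of the 516 kept regions and a rise of that size at none. Only kept regions have a value in both arms, so the share over all regions with such values is the same 58.7%. Kept regions held a median of 2 listed windows after the knockdown, against 4 in the control, with fewer windows at 403 regions, as many at 61 and more at 52. Regions of a single window made up 35.3% of the kept regions after Cbx3 siRNA (182 regions), against 6.01% in the control (31 regions). In all, the kept regions covered 57.4 kb of listed windows after Cbx3 siRNA, against 121.1 kb in the control.

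**Figure D1:**
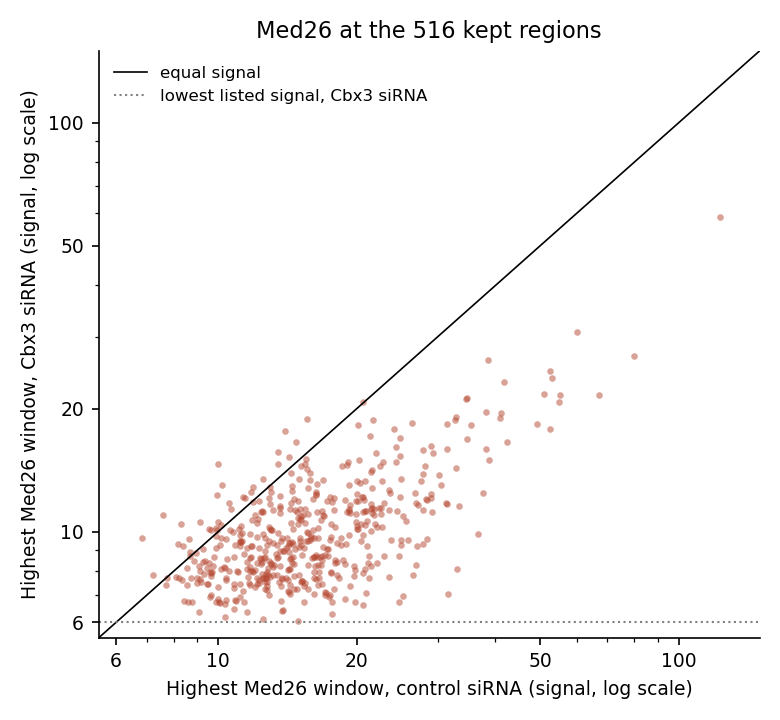
Each point is 1 of the 516 kept regions, with the signal of its highest Med26 window in control siRNA cells on the x axis and in Cbx3 siRNA cells on the y axis, both on log scales; the solid line marks equal signal and the dotted line the lowest signal listed after Cbx3 siRNA. Of the points, 483 lie below the solid line and 33 above it.

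The kept regions were drawn mainly from the stronger and wider part of the control list. Their median control signal of 15.1 compares with 9.39 at lost regions, and their median of 4 windows with 2. Within classes of control signal the wider regions were mostly kept more often, though not at every step. A wider region also has more bases on which an overlap can fall, and how much of the trend this gives was not tested. The highest class spans signals of 15.7 to 144.7, so signal need not be alike within it. Among control regions in the highest 10% by signal (15.7 and above), 75 of 149 with 7 or more windows were kept (50.3%, interval 42.4 to 58.3%), against 54 of 132 with 4 windows (40.9%), 24 of 131 with 3 windows (18.3%, interval 12.6 to 25.8%) and 15 of 48 with 2 windows (31.2%, interval 19.9 to 45.3%). In the lowest 50% by signal (9.62 and below), 13 of 1757 single windows were kept (0.740%) and none of the 15 regions with 7 or more. A region needs a signal of at least 6.01 in both lists to be kept, so a weak control region could be kept only if it fell little. The log2 difference of Med26 was accordingly -0.25 in the 25% of kept regions with the lowest control signal and -1.07 in the 25% with the highest, and this gradient cannot be told apart from that limit. In the highest 25%, where control signals ran from 20.2 to 122.7, the median after Cbx3 siRNA was 12.1, against 24.9 in the control. The classes were made from the control value that enters the difference, which by itself makes the difference lower where the control is high.

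**Figure D2:**
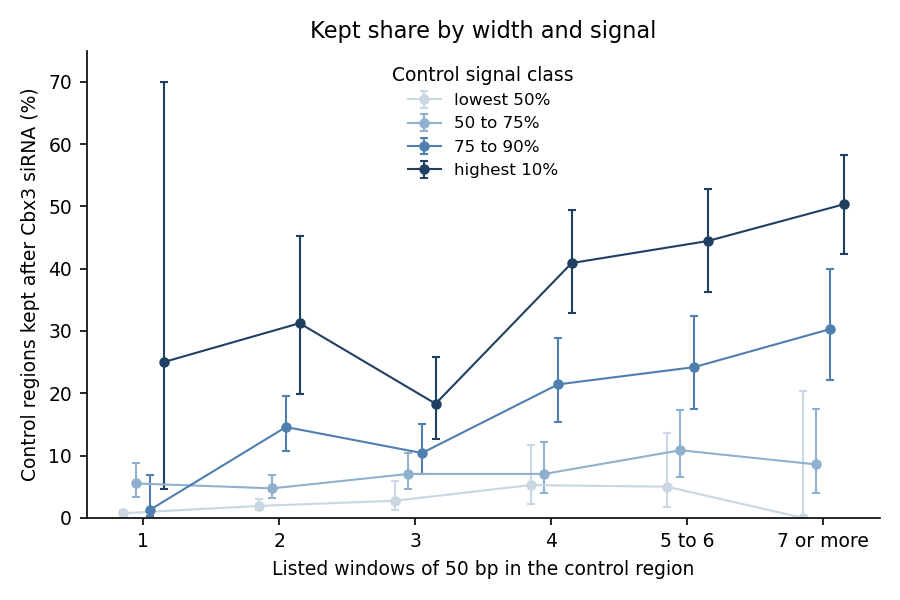
Share of Med26 control regions that were kept after Cbx3 siRNA (y axis, %) by the number of listed 50 bp windows in the control region (x axis), with 1 line for each class of control signal; bars are 95% Wilson intervals. The line of the highest 10% by signal reaches 50.3% at 7 or more windows, while the lowest 50% stays at or below 5.26%.

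The strongest kept region, chr9:44689201-44689700, was also the only 1 listed in all 9 ChIP libraries. Its highest Med26 window had a signal of 59.0 after Cbx3 siRNA, against 122.7 in the control, a log2 difference of -1.06, and its listed windows numbered 5 and 10. Pol II there was 33.3 after Cbx3 siRNA and 40.7 in the control, with 19.8 in untreated cells. Cdk8 differed in the other direction, with a signal of 30.5 after Cbx3 siRNA, against 11.2 in the control, and Cbx3 was listed in both untreated sets. Its signal in the input libraries was not analysed here.

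The next strongest kept regions had no Cdk8 listed after the knockdown. At chr6:134517201-134517550 Med26 was 26.9 after Cbx3 siRNA, against 79.9 in the control. At chr1:192886551-192886900 it was 21.6, against 67.2 in the control, and at chr7:104548501-104548900 it was 30.7, against 60.2. These 3 regions thus stayed well above the lowest listed value while Med26 fell by 0.97 to 1.64 on the log2 scale. Their Pol II was lower too. It measured 35.0 after Cbx3 siRNA and 49.4 in the control at the chromosome 6 region, 11.6 and 24.1 at the chromosome 1 region, and 12.4 and 28.6 at the chromosome 7 region. The log2 differences of the chromosome 1 and 7 regions, -1.06 and -1.20, were beyond the median Pol II difference at kept regions (-0.34).

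Other strong kept regions lost Med26 signal with little difference in Pol II. At chr3:95733151-95733700 Med26 was 21.6 after Cbx3 siRNA, against 55.2 in the control, and Pol II was 30.4, against 29.6. At chr8:113370401-113370750 Med26 was 20.7, against 55.03 in the control, and Pol II was 36.7, against 41.1. At chr2:130004601-130005150 Med26 was 23.8, against 53.2, and Pol II was 23.6, against 24.8; this region also held Cdk8 in the control (11.6) but not after Cbx3 siRNA. Control Pol II varied widely among the strongest members: the 8 kept regions of highest control Med26 ranged in control Pol II signal from 24.1 at the chromosome 1 region to 152.9 at chr4:131825901-131826250, where Med26 was 17.8 after Cbx3 siRNA and 52.6 in the control. Across the 499 kept regions with control Pol II, the log2 signals of Med26 and Pol II in the control had a Pearson r of 0.07 and a Spearman rho of 0.07; the points come from 1 library per antibody, and the rule had narrowed their range of Med26. Over all control regions the median Med26 signal was higher in each higher class of Pol II, at 7.70 where Pol II was not listed and 11.5 in the 25% with the highest Pol II.

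Most of the strongest kept regions after the knockdown were those of the control. The 5 highest Med26 signals at kept regions in Cbx3 siRNA cells were at the chromosome 9, 7 and 6 regions above, at chr8:23970001-23970300 (26.2, against 38.5 in the control) and at chr11:70051451-70051800 (24.8, against 52.5). The chromosome 8 region had high Pol II in every library, 77.2 after Cbx3 siRNA, 94.5 in the control and 65.9 in untreated cells, and held Cbx3 in both sets.

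A few kept regions had more Med26 after Cbx3 siRNA than in the control, all by less than 1.5-fold. The largest rise was at chr6:119429601-119429750, with a signal of 14.6 after Cbx3 siRNA, against 9.97 in the control (log2 difference 0.55). It was followed by chr14:48092351-48092550 (11.01, against 7.60 in the control) and chr17:29169301-29169350 (9.62, against 6.83). These regions were weak in the control, and Pol II at each of them was lower after the knockdown (25.7, against 38.2 in the control, at the chromosome 6 region). At chr5:115392251-115392350 Med26 was 13.03, against 10.2 in the control, and Pol II was higher as well (27.5, against 22.02). At chr8:13869651-13870250 Med26 was 17.6, against 13.9, although its listed windows numbered 4 after Cbx3 siRNA, against 12 in the control.

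The 5 largest falls among kept regions left Med26 at signals of 6.74 to 9.87. At chr17:35301551-35301800 Med26 was 7.03 after Cbx3 siRNA, against 31.5 in the control (log2 difference -2.17), and Pol II was 39.0, against 63.6. At chr9:105397551-105397750 Med26 was 8.10, against 33.0 in the control, with Pol II at 33.0 and 44.8. At chr17:28314201-28314550 Med26 was 9.87, against 36.7, with Pol II at 22.6 and 27.5. A further pair fell almost as far but differed in Pol II. At chr8:23521901-23522100 Med26 was 6.74, against 24.7 in the control, while Pol II was higher after Cbx3 siRNA (31.5, against 20.7). At chr13:48641601-48641850 Med26 was 6.97, against 25.2, and Pol II was lower (33.7, against 57.1).

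The widest kept regions in the control were chr2:126500801-126501700 with 18 listed windows, chr3:95118751-95119600 with 17 and chr9:82868751-82869550 with 16. After Cbx3 siRNA they held 7, 2 and 3 windows. Their highest windows fell less than their listed length did: 18.8, against 21.7 in the control, at the chromosome 2 region, 10.5, against 21.9, at the chromosome 3 region, and 14.6, against 19.04, at the chromosome 9 region.

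The rule has a threshold in the signal that the lists require, and the members nearest to it were single windows after Cbx3 siRNA. They were chr1:138130501-138130650 with a Med26 signal of 6.04 after Cbx3 siRNA, against 14.9 in the control, chr6:83781551-83781650 with 6.12, against 12.5, and chr15:58247051-58247200 with 6.20, against 10.4. On the other side, the lost regions of highest control signal were not weak. All 3 lay on chromosome 17, at 39980251 to 39980550, 39982701 to 39983000 and 39980901 to 39981050, with control Med26 signals of 144.7, 136.7 and 124.6. Med26 was listed close to them after the knockdown, in a window of signal 111.6 at chr17:39981151-39981200, at 600, 1500 and 100 bp, without overlap. They count as lost because none of them overlapped that window, and the stretch carries high signal of other antibodies as well (Cdk8 at 313.0 after Cbx3 siRNA and 251.4 in the control). Of all 5474 lost regions, 178 (3.25%) had a Med26 region after Cbx3 siRNA within 200 bp and 377 (6.89%) within 1000 bp.

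Pol II, which the rule did not use, was listed at nearly all kept regions. Under Cbx3 siRNA it lay at 486 of 516 (94.2%, interval 91.8 to 95.9%), against 70.4% of all 5990 control regions of Med26. Under control siRNA it lay at 499 (96.7%, interval 94.8 to 97.9%), against 74.9% of all, and in untreated cells at 401 (77.7%, interval 73.9 to 81.1%), against 46.2% of all. Part of that gap goes with signal and width, so lost regions were weighted to the kept regions in 8 classes of control signal and 6 classes of window number. This left 1 kept region without a counterpart and gave lost regions a median signal of 15.03 and a median of 4 windows, close to the 15.1 and 4 of the kept regions. In lost regions so weighted, Pol II lay at 89.1% under Cbx3 siRNA, 92.2% under control siRNA and 70.2% in untreated cells. The kept regions stood 5.08, 4.53 and 7.47 points above these shares, and in each library the interval of the kept share lay above the lost share. This did not hold with both Med26 arms limited to signals at or above the median of the control list, a comparison chosen after seeing the data. It leaves 232 kept regions, and members whose Cbx3 siRNA signal lay below the cut then count as lost. The comparison is thus partly between members, so it cannot show whether the excess is absent at stronger regions. The excess was then 1.92 points after Cbx3 siRNA (interval -1.71 to 4.13), 2.42 points in the control (interval -0.64 to 3.99) and 1.77 points in untreated cells (interval -3.78 to 6.53), and all 3 intervals include 0.

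**Figure D3:**
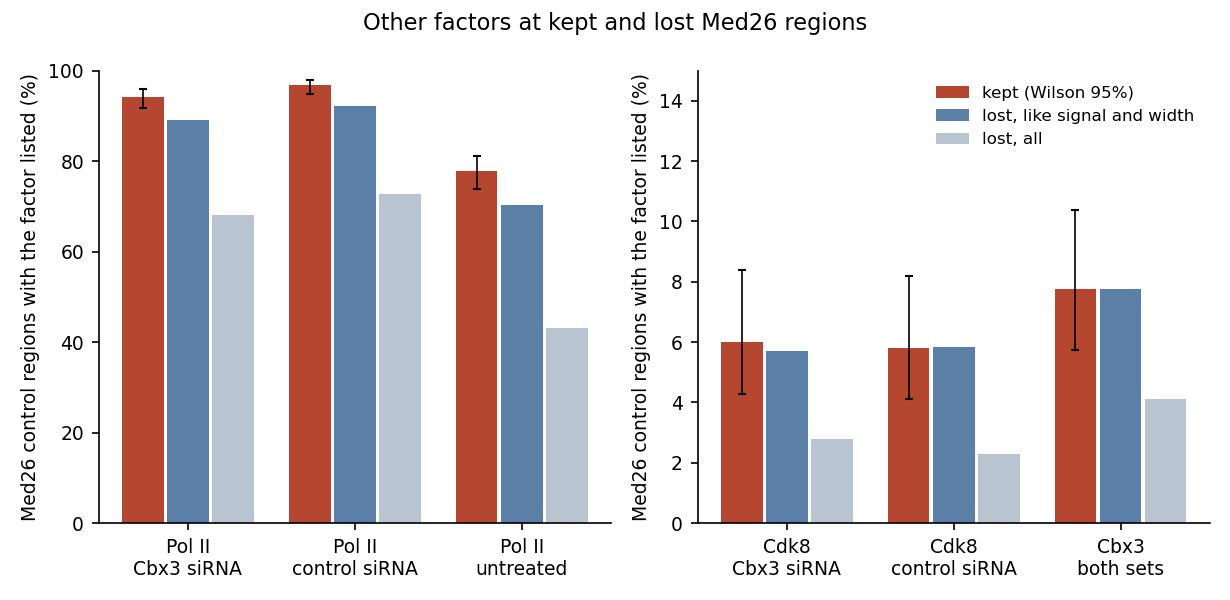
Share of Med26 control regions at which Pol II (left) or Cdk8 and Cbx3 (right, with a y axis to 15%) was listed, at kept regions (red, with 95% Wilson intervals), at lost regions weighted to the kept regions' signal and window number (blue) and at all lost regions (grey). For Pol II the red bars stand 4.53 to 7.47 points above the blue ones, while for Cdk8 and Cbx3 red and blue differ by at most 0.33 points.

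The Pol II excess was widest among the weak and narrow members. In the 25% of kept regions with the lowest control Med26 signal (6.83 to 12.05), untreated Pol II lay at 85 of 127 (66.9%, interval 58.4 to 74.5%), against 47.8% of lost regions weighted by the same classes of signal and width. Pol II of the control arm lay at 92.9% of them (interval 87.1 to 96.2%), against 79.4%. Pol II after Cbx3 siRNA lay at 90.6% of them (interval 84.2 to 94.5%), against 75.4%. In the next class (12.1 to 15.1) there was no such gap: the untreated share was 74.8% (interval 66.7 to 81.5%), against 71.3%, and the share after Cbx3 siRNA was 91.6% (interval 85.6 to 95.2%), against 92.6%. At signals of 15.1 to 20.1 the untreated share was 88.4% (interval 81.7 to 92.8%), against 80.1%, and the share after Cbx3 siRNA was 97.7% (interval 93.4 to 99.2%), against 95.04%. In the 25% with the highest Med26 signal the untreated shares were 80.6% of kept regions (interval 73.0 to 86.5%) and 81.4% of lost ones, those after Cbx3 siRNA were 96.9% (interval 92.3 to 98.8%) and 93.1%, and those of the control arm were 99.2% (interval 95.7 to 99.9%) and 95.7%. The lowest signal class has no lower bound, so it also holds lost regions weaker than the kept ones. Of all 2129 single windows, 1757 had signals of 9.62 or below, but only 13 of the 31 kept ones did. Signal was thus not fully alike where the excess was widest. By width, the 31 kept single windows held untreated Pol II in 61.3% of cases (interval 43.8 to 76.3%), against 28.6% of lost single windows weighted by signal class. Kept regions of 2 windows held it in 64.1% (interval 53.9 to 73.2%), against 49.3%, and those of 5 to 6 windows in 80.4% (interval 71.9 to 86.8%), against 80.6%. The share was 76.0% (interval 65.2 to 84.2%), against 66.2%, at 3 windows and 77.0% (interval 67.8 to 84.2%), against 73.9%, at 4 windows. At 7 or more windows it was 92.8% (interval 86.4 to 96.3%), against 88.2%. The lost regions behind the highest 25% number only 84, with single regions weighted up to 3.30 times, so the shares there rest on few regions. Without the 3 chromosome 17 lost regions described above, an alternative chosen after seeing the data, the lost share was 97.5% in the control arm. It was 93.0% after Cbx3 siRNA and 80.4% in untreated cells.

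Read from the side of Pol II, more Med26 regions were kept where control Pol II was stronger. Of the 1506 control Med26 regions without control Pol II, 17 were kept (1.13%, interval 0.706 to 1.80%), where the signal and width classes alone would give 2.45%. Where Pol II was listed at up to 23.5, its lowest 25%, 67 of 1119 were kept (5.99%, interval 4.74 to 7.53%), against 7.58% from the classes. Where it was 41.0 or above, its highest 25%, 175 of 1122 were kept (15.6%, interval 13.6 to 17.8%), against 13.8%. Most of this gradient thus goes with Med26 signal and width. The difference from the classes was -1.33 and -1.60 points in the first 2 groups, whose intervals lie below the share from the classes. It was 1.85 points in the last, whose interval includes it. The lowest signal class has no lower bound, and regions without control Pol II had a median Med26 signal of 7.70. Signal was thus not fully alike there, and how much of the shortfall this gives was not tested.

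Where Pol II was listed, its median level at kept regions was only slightly above that at weighted lost ones. The interval lay above the lost median in the control alone. The highest Pol II window had a median signal of 28.6 after Cbx3 siRNA (interval 27.4 to 29.3, 486 regions), against 27.7 in weighted lost regions. In the control it was 35.8 (interval 34.2 to 37.3, 499 regions), against 33.8, and in untreated cells 22.4 (interval 21.2 to 23.5, 401 regions), against 21.9. Pol II regions under kept Med26 spanned a median of 11 windows after Cbx3 siRNA, 12 in the control and 6 in untreated cells, against 10, 11 and 5 in weighted lost regions. The 499 kept regions with control Pol II lay in 495 distinct Pol II regions.

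Pol II was lower after Cbx3 siRNA at most kept regions and at most lost regions. Its highest window had a median log2 difference of -0.34 (interval -0.38 to -0.31) in the 477 kept regions with Pol II in both siRNA arms. It was lower in 395 of them (82.8%, interval 79.2 to 85.9%), against 83.3% of weighted lost regions. In lost regions of like Med26 signal and width the median was -0.31. The gap was -0.03 (interval -0.07 to 0.01, with the lost value taken as fixed), which does not show that the change was equal. Under 4 of the alternatives the interval lay just below 0: the gap was -0.04 with touching windows alone merged, -0.05 with merging up to 1000 bp, -0.04 with 16 signal classes and -0.03 without the region listed in all 9 libraries. Pol II fell by at least 1.5-fold at 123 of the 477 (25.8%, interval 22.1 to 29.9%), against 22.2% of all 3984 Med26 control regions with Pol II in both arms and 23.3% of weighted lost ones. It rose by that much at 5 (1.05%, interval 0.449 to 2.43%), against 0.778% of all. The share at kept regions is thus near the background in both directions.

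**Figure D4:**
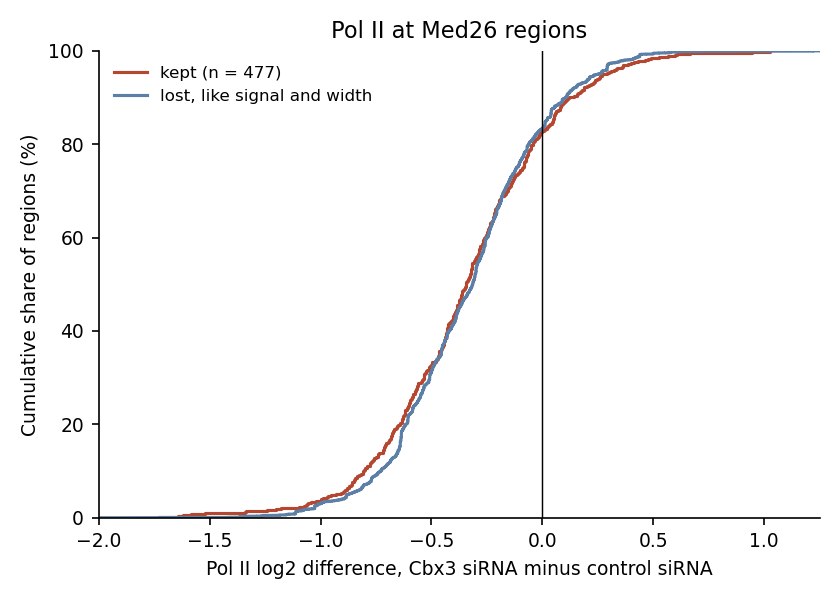
Cumulative share of Med26 control regions (y axis, %) by the log2 difference of the highest Pol II window, Cbx3 siRNA minus control siRNA (x axis), for the 477 kept regions with Pol II in both arms (red) and for lost regions weighted to their signal and window number (blue). The curves run close together, with medians of -0.34 and -0.31.

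Across kept regions the Med26 and Pol II differences were close to uncorrelated. Over the 477 kept regions the log2 differences had a Pearson r of 0.05 and a Spearman rho of 0.06. The points share 1 Med26 and 1 Pol II library per arm. The rule also narrows the Med26 difference, since a kept region needs a Med26 signal of at least 6.01 after Cbx3 siRNA. Lost regions have no such value, so the correlation does not cover them. In the 25% of kept regions with the lowest control Pol II the median Pol II difference was -0.07 and that of Med26 -0.59, and in the 25% with the highest control Pol II they were -0.45 and -0.70. The classes were made from the control Pol II value that also enters the Pol II difference, which by itself makes the first value higher than the last.

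Kept regions were also split by the Pol II lists they appear in. The split was not compared with lost regions, so its counts describe the members alone. Pol II was listed in all 3 libraries at 390 of them, with a median Med26 signal of 9.51 after Cbx3 siRNA and 15.6 in the control. At 87 regions it was listed in both siRNA arms but not in untreated cells, with Med26 at 9.28 and 13.8. The untreated list starts at a higher signal (9.02, against 6.01 in the siRNA arms), so a missing untreated call need not be a difference in Pol II. No Pol II was listed in any library at 7 kept regions. The 5 of these with the highest control signal were chr4:120770851-120771100 (Med26 11.3 after Cbx3 siRNA, 20.9 in the control), chr11:120794251-120794400 (11.2 and 19.04), chr18:7004701-7004900 (10.4 and 14.9), chr10:78560151-78560250 (7.70 and 12.7) and chr2:28915551-28915600 (6.66 and 10.4). All 7 had less Med26 after the knockdown, and none of these 5 had Cdk8 listed in either arm. Cbx3 of set 1 was listed at the chromosome 4 and 18 regions and Cbx3 of set 2 at the chromosome 11 region.

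Cdk8 was listed at few kept regions, and its share there was close to that at lost regions of like signal and width. After Cbx3 siRNA it lay at 31 of 516 (6.01%, interval 4.26 to 8.40%), against 3.06% of all control Med26 regions and 5.69% of weighted lost ones. In the control it lay at 30 (5.81%, interval 4.10 to 8.18%), against 2.59% of all and 5.83% of weighted lost ones. The gap to all regions was thus not seen once signal and width were alike, and at these counts a difference from lost regions was not detectable. With both Med26 arms limited to the median control signal and above, Cdk8 after Cbx3 siRNA lay at 5.17% of kept regions. The difference from weighted lost regions was -3.98 points (interval -6.19 to -0.36), the 1 setting whose interval for Cdk8 leaves out 0. That comparison was chosen after seeing the data, and its interval takes the lost share as fixed. Its lost regions include members whose Cbx3 siRNA signal lay below the cut, so it does not show a lack of Cdk8 at kept regions. Cdk8 was seldom listed in both arms: 8 kept regions held it in both arms, 23 after Cbx3 siRNA alone and 22 in the control alone. This was so over all 5990 control Med26 regions too. Of these, 183 held Cdk8 after Cbx3 siRNA and 155 in the control, but only 33 in both arms. Its listed signals at kept regions were low, with a median of 9.62 after Cbx3 siRNA and 8.76 in the control, so many lie near the lowest listed value of 6.01.

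At the 8 kept regions with Cdk8 in both arms, Cdk8 showed no common direction. It was higher after Cbx3 siRNA at 4 and lower at 4, with a median log2 difference of 0.13 (interval -0.58 to 1.44), which is -0.15 without the chromosome 9 region listed in all libraries. A rise of at least 1.5-fold was seen at 3 of the 8, against 21.2% of all 33 Med26 control regions with Cdk8 in both arms, and a fall of that size at none, against 12.1% of all. The 3 are the strongest kept region on chromosome 9, chr16:4077601-4078100 (Cdk8 12.7 after Cbx3 siRNA, 7.98 in the control) and chr1:88483401-88483850 (14.8 and 8.46). The lowest was chr7:147323551-147323800, with Cdk8 at 14.0 after Cbx3 siRNA, against 20.9 in the control, and Med26 at 12.5, against 37.6. At chr3:85378101-85378150 Cdk8 was the highest of the 8 in the control (22.8 after Cbx3 siRNA, 25.2 in the control), while Med26 was weak and slightly higher after the knockdown (7.81, against 7.22). The regions of this paragraph other than the strongest were named after their values were seen.

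Cbx3 of untreated cells lay at like shares of kept regions and of lost regions of like signal and width. Cbx3 listed in both sets was found at 40 of 516 kept regions (7.75%, interval 5.74 to 10.4%), against 4.44% of all control Med26 regions and 7.75% of weighted lost ones. With set 1 alone it lay at 206 kept regions (39.9%) and with set 2 alone at 59 (11.4%), so the share depends on the set, whereas the gap to weighted lost regions was 0.94 points with set 1 and 0.40 points with set 2. By signal the shares varied, on small counts. In the 3 lower of 4 classes by Med26 signal kept regions held Cbx3 in 7.09 to 10.1% of cases, against 4.68 to 6.52% of lost ones, while in the highest class 7 of 129 kept regions did (5.43%, interval 2.65 to 10.8%), against 14.7% of the 84 weighted lost regions. Of those 84, 11 held Cbx3, and 3 of the 11 are the chromosome 17 regions described above. Without those 3, an alternative chosen after seeing the data, the share of weighted lost regions in this class was 10.7%, which lies inside the interval of the kept share. In each of the 3 lower classes the interval of the kept share includes the lost share.

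The Med26 difference between arms was also compared at kept regions with and without Cbx3. The median log2 difference was -0.74 (interval -0.82 to -0.61) at the 40 regions with Cbx3 of both sets and -0.67 (interval -0.71 to -0.62) at the 476 others, and the intervals overlap. The rule leaves out regions without Med26 listed after Cbx3 siRNA. These medians therefore cannot show whether the change of Med26 was alike with and without Cbx3. For Pol II the medians were -0.27 (interval -0.37 to -0.14, 38 regions) and -0.35 (interval -0.39 to -0.32, 439 regions), which also overlap. Pol II, Cdk8 in either arm and Cbx3 of both sets came together at 5 kept regions, a count not compared with lost regions. Of them 1, the strongest on chromosome 9, had Cdk8 in both arms.

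Kept regions peaked at nearly the same place in both arms. The highest Med26 window was the identical window in 209 of 516 (40.5%), at most 50 bp away in 401 (77.7%) and at most 100 bp away in 466 (90.3%). Overlap between the arms is part of the rule and limits how far they can lie apart. Relative to Pol II, the highest Med26 window lay within 100 bp of the highest control Pol II window in 316 of 499 kept regions (63.3%, interval 59.0 to 67.4%), against 63.1% of weighted lost ones, and within 500 bp in 480 (96.2%), against 97.1%. The distribution around Pol II was thus close to that of lost regions.

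**Figure D5:**
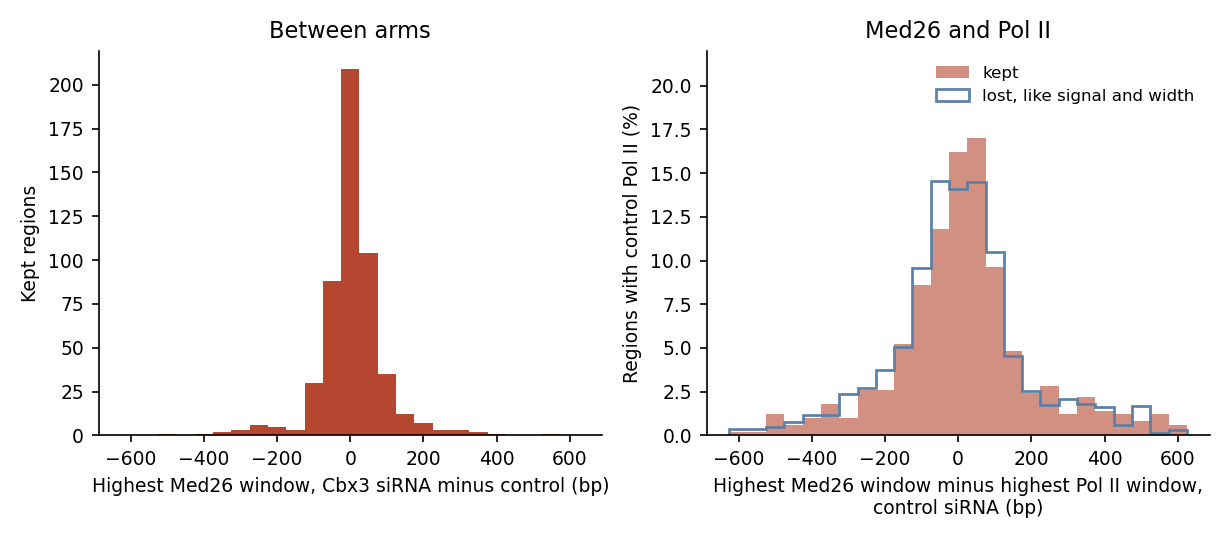
Left, distance in bp between the highest Med26 windows of Cbx3 siRNA and control siRNA at the 516 kept regions (y axis, number of regions). Right, distance in bp of the highest control Med26 window from the highest control Pol II window, as % of kept regions (red) and of weighted lost regions (blue line); 8 of the 499 kept regions lie beyond the plotted 625 bp. Both distributions centre near 0.

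The kept regions were spread over 20 chromosomes. Chromosome 11 held the most (51), followed by chromosome 8 (42) and chromosome 5 (37), and the X chromosome held 3. The kept share ran from 4.53% of the regions on chromosome 13 (interval 2.55 to 7.92%) to 13.04% on chromosome 18 (interval 8.92 to 18.7%), where signal and width classes alone would give 7.93 and 9.44%. For 19 of the 20 chromosomes the counting interval included the share given by the classes, and chromosome 13 missed it narrowly. Within chromosomes the regions fell in 396 stretches of 1 Mb. Another kept region lay within 100000 bp of 82 of the 516 and within 1 Mb of 294. These counts were not compared with lost regions. The fullest stretch was on chromosome 8 from 23 to 24 Mb, where 5 of 8 control Med26 regions were kept. It includes the strong region at 23970001 and the deep fall at 23521901 described above.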

How the data were processed

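The window lists of 9 ChIP-seq libraries were analysed; 7 input libraries were left out. Reads were aligned with Bowtie to mm9, per the submitters' processing notes; how windows were tested against inputs, and the minimum, is not stated there. The authors deposited a signal for each listed 50 bp window, and these signal values were used unchanged. Here, windows up to 200 bp apart were merged, a region took its highest window, and regions overlapped from 1 bp; Cbx3 regions were those of set 1 overlapping set 2. Lost regions were weighted to the kept regions by stratum (8 signal classes by 6 window classes). Shares carry Wilson intervals and medians binomial intervals of order statistics, both at 95%. No test was made, there being 1 library per antibody and siRNA arm. The steps were tested on simulated data. The members, classes and the rule for named regions (the extremes of signal, change, width and threshold, and those without Pol II or with Cdk8 and Cbx3) were chosen with earlier results of these data known. Computations used Python 3.11.15, scipy 1.17.1, pandas 2.3.3, numpy 2.4.6 and, for plots, matplotlib 3.10.9. Coordinates count from 1 in mm9, and distances to gene starts were not run.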

Additional observations from a re-analysis of the deposited data

How the results depend on the processing

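The excess of Pol II at kept over weighted lost regions stayed above 0 under the 11 alternatives that can change it, for each library, from 1.92 to 5.73 points after Cbx3 siRNA, 2.42 to 5.41 points in the control and 1.77 to 11.07 points in untreated cells; for Cdk8 and Cbx3 the sign varied. No called value changed its direction. Of 204 values computed under alternatives, single regions aside, 175 stayed within the counting interval (or, for the number of kept regions, within 1.5 times) and on the same side of 0 where a difference had an interval; the other 29 follow, and the cause was not tested. With an overlap of at least 50% of the shorter region, Pol II lay at 91.4, 94.7 and 72.4% of kept regions (Cbx3 siRNA, control, untreated). With windows up to 1000 bp apart merged, 9.85% of regions were kept, 9.01% of them with Cdk8 after Cbx3 siRNA and 13.7% with Cbx3. With Cbx3 siRNA regions of 2 or more windows alone, 334 were kept (5.58%). With both arms limited to the median control signal and above, 232 were kept (7.72%), with a median Med26 difference of -0.63. The excess over weighted lost regions, an alternative chosen after seeing the data, was then 1.92, 2.42 and 1.77 points for Pol II (Cbx3 siRNA, control, untreated) with intervals that include 0, -3.98 points for Cdk8 after Cbx3 siRNA with an interval below 0, and -3.49 points for Cbx3. These intervals take the lost share as fixed, and the lost regions there include members whose Cbx3 siRNA signal lay below the cut. With the nearest lost region of the same window number, the untreated Pol II excess was 11.07 points. The gap of the Pol II difference between kept and lost regions had an interval just below 0 with touching windows merged (-0.038), with 1000 bp merging (-0.049), with 16 signal classes (-0.044) and without the region listed in all 9 libraries (-0.029). With the mean of the windows as signal, the median differences were -0.52 for Med26 and -0.25 for Pol II, and, among single regions, Med26 differed by -0.33 at chr9:44689201-44689700, -0.37 at chr3:95733151-95733700 and -0.29 at chr3:95118751-95119600. With 1 Cbx3 set, Cbx3 lay at 11.4 to 39.9% of kept regions. From region centres, Med26 lay a median of 125 bp from Pol II, against 100 bp. With Pol II taken inside the Med26 region, an alternative chosen after seeing the data, its median signals were 25.7, 31.4 and 21.0. No paired analysis was possible because there was a single library for each antibody and siRNA. Single windows, 35.3% of kept regions after Cbx3 siRNA, limit the precision.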
